A study of Mus musculus with 100 samples.

Results

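The 10 genes described here are transcription factor genes that pattern the somites: Pax1, Pax9, Uncx, Tbx18, Meox1, Meox2, Foxc2, Nkx3-2, Tcf15 and Pax3. They were taken as a fixed list, 10 of the 23109 gene-level entries in the RNA tables, and followed through all 37 RNA libraries, with whole mouse embryos first. The list was chosen by textbook role and by earlier values of these data, the E8.5 ratios of KI to control that had named Pax1 and Uncx, so the E8.5 genotype comparison is given as a description, without a test. All 10 genes had reads in each of the 12 embryos and passed the low-count filter there. The fewest were the 4 reads of Nkx3-2 in 1 E8.5 control.

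MLL3 and MLL4, encoded by Kmt2c and Kmt2d, methylate lysine 4 of histone H3 at enhancers, and their enzymatic activities are the subject of the study. Control embryos were Mll3flox/KI;Mll4flox/+;Sox2-Cre and KI embryos were Mll3flox/KI;Mll4flox/KI;Sox2-Cre, with 3 whole embryos per genotype at E8.5 and at E9.5. Both groups therefore share the Mll3 alleles and the Cre, which is active in the epiblast and so in the embryo proper, and differ in the second Mll4 allele, wild type or KI, an allele name the labels do not spell out. In culture, flox cells (Mll3-/-;Mll4flox/flox) were compared with KI cells (Mll3-/-;Mll4KI/KI, clones 27 and 48), so that all cultures lack Mll3. The cultures were embryonic stem cells (ESCs, day 0), embryoid bodies (EBs, aggregates grown from hanging drops) at days 4 and 10, neural cultures from an EB protocol with 5 µM retinoic acid (progenitors at day 8, neurons at day 16), trophectoderm cultures at day 6 of induction of a T7-tagged CDX2 transgene from a doxycycline-inducible lentivirus, and extraembryonic endoderm made with retinoic acid and activin A, at day 5. Flox had 1 library per day in the EB course and 2 in each other culture, and KI had 1 library per clone.

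Somites are paired blocks of paraxial mesoderm that form in sequence on both sides of the neural tube. The ventral part of each somite becomes the sclerotome, the source of vertebrae and ribs, under Hedgehog signals from notochord and floor plate, and the dorsal part becomes the dermomyotome, the source of skeletal muscle and dermis, under Wnt signals. Pax1, Pax9 and Nkx3-2 act in the sclerotome; Uncx marks the caudal and Tbx18 the rostral side of each segment; Meox1, Meox2 and Tcf15 act in the epithelial somite and its derivatives; Foxc2 acts in paraxial mesoderm and sclerotome; and Pax3 marks presomitic mesoderm and dermomyotome. Several have other sites in an embryo, such as the pharyngeal pouches for Pax9, the dorsal neural tube and neural crest for Pax3, and the proepicardium and limb bud for Tbx18. In a whole embryo, fewer cells of a type and less RNA per cell cannot be told apart.

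The RefSeq promoter table (GRCm38.p6) held 6 of the 10 genes. The 250 bases before the annotated start are shown for Pax1 and Uncx, the genes with the lowest KI to control ratios in the embryos, and for Tbx18, the counterpart of Uncx on the other side of the segment, whose ratio stayed near or above 1. Each runs 5′ to 3′ on the strand of the gene, and capitals mark matches to the CCAAT box (letters CCAAT, either strand).
Pax1: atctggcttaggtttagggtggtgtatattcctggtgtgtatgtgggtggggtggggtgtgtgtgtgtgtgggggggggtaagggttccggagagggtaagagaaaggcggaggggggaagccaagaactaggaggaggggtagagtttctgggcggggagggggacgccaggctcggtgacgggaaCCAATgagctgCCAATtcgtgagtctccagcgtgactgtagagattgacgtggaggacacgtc
Uncx: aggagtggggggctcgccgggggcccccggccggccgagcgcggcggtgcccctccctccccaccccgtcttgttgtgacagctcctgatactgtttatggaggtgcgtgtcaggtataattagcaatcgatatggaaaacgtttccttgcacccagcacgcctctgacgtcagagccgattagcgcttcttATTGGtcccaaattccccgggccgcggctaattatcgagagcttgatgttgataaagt
Tbx18: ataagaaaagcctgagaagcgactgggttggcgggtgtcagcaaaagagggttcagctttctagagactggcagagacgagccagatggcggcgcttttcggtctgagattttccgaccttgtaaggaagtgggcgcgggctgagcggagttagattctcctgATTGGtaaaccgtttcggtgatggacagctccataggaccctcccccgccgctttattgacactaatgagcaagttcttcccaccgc
These windows lie at chr2:147364744-147364993 (plus strand) for Pax1, chr5:139543648-139543897 (plus strand) for Uncx and chr9:87731261-87731510 (minus strand) for Tbx18. Pax1 has 2 CCAAT matches, beginning 63 and 52 bases before the start, Uncx has 1 at 58 bases and Tbx18 has 1 at 87 bases. A CCAAT match occurred in 33.8% of all 32851 promoter windows of that length, so it is common. None of the 3 windows holds the TATA box letters TATAAA (12.4% of all windows). The E-box CANNTG, the kind of site bound by basic helix-loop-helix factors such as Tcf15, had no match in Pax1 or Uncx and 1 in Tbx18, against 66.2% of all windows with a match. The GC box GGGCGG matched in Pax1 only of these 3 (32.7% of all windows). Their CG dinucleotides numbered 10, 20 and 15, against a median of 6 over all promoters. Such matches describe the letters in these windows.

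Gene-level reads numbered 20.1 to 26.9 M in the embryo libraries, 18.9 to 25.8 M in the EB course, 39.0 to 59.9 M in neural cultures and 19.6 to 27.6 M in trophectoderm and extraembryonic endoderm cultures. Levels below are CPM (counts-per-million of the gene-level reads) unless RPKM is named. Kmt2d was expressed at 149 to 334 CPM in all 37 libraries and Kmt2c at 27.6 to 99.4 CPM, so the counts of these genes do not check the genotype labels. Markers of the labelled cultures were present: Pou5f1 at 1392 to 1478 CPM in ESCs, Pax6 at 104 to 137 CPM in neural progenitors, Tubb3 in neurons (754 to 901 CPM in flox, 1204 to 1557 CPM in KI), Cdx2 in trophectoderm cultures (27.1 and 29.9 CPM in flox, 103 and 107 CPM in KI) and Gata6 at 85.6 to 110 CPM in extraembryonic endoderm. Sox17, another endoderm marker, stood there at 70.6 and 82.4 CPM in flox but at 11.3 and 11.4 CPM in KI, and Gata6 was higher still in day 10 EBs (269 to 362 CPM). Trophectoderm cultures also kept Pou5f1, at 222 and 223 CPM in flox and 62.6 and 110 CPM in KI.

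Levels of different genes were compared per length, on the deposited RPKM scale. In E8.5 control embryos Tcf15 (27.3 ± 5.55 RPKM, SD, n = 3), Meox1 (25.5 ± 4.20) and Foxc2 (21.0 ± 3.90) stood highest, with ranges that overlapped from one to the next. Below them came Pax3 (6.33 ± 0.446), Uncx (4.34 ± 0.898), Pax1 (2.91 ± 0.546), Meox2 (1.85 ± 0.380) and Tbx18 (1.08 ± 0.264), each separated from its neighbours, and then Pax9 (0.634 ± 0.167) and Nkx3-2 (0.409 ± 0.331), which overlapped. In E9.5 KI embryos the order was different: Pax1, sixth in the controls of both stages, was the lowest of the 10 (0.538 ± 0.157 RPKM), and Uncx (1.25 ± 0.415) stood at the level of Nkx3-2 (1.23 ± 0.677).

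At E8.5 all 10 genes had a lower fitted level in KI than in control embryos, as did 52% of all genes tested. Without control replicate 3 this held for 7 of the 10. Fold changes are log2 ratios of KI to control from edgeR with their standard errors. The 6 genes Pax1, Uncx, Meox1, Meox2, Tcf15 and Pax3 were lower in every KI embryo than in any control embryo, a pattern that held for 12.6% of the 15436 genes tested (edgeR called 5.46% of all genes, in either direction). The median log2 fold change over the 10 was -0.71, against -0.01 over all genes tested, and -0.41 without control replicate 3. Because this comparison helped to choose the genes, nothing is read from these counts.

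The sclerotome genes differed among themselves at E8.5. Pax1, a paired-box factor required for the ventral vertebral column, stood at 8.41, 9.42 and 12.1 CPM in the controls and at 1.64, 1.41 and 1.42 CPM in the KI embryos. Each KI embryo was far below each control, and the log2 fold change was -2.74 (SE 0.23), or 6.67-fold lower. Its paralog Pax9 stood at 2.04, 1.6 and 2.72 CPM in the controls and 1.94, 1.18 and 2.31 CPM in KI, overlapping ranges with a log2 fold change of -0.22 (SE 0.30). Nkx3-2, a sclerotome factor that promotes cartilage, had 4 to 30 reads per embryo, and its controls ran from 0.199 to 1.43 CPM around KI values of 0.364 to 0.619 CPM. At that depth no direction can be read for Nkx3-2.

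The segment polarity pair also differed. Uncx stood at 10.3, 10.5 and 14.7 CPM in E8.5 controls and at 1.94, 2.36 and 2.76 CPM in KI, a log2 fold change of -2.32 (SE 0.23). Tbx18 stood at 5.47, 5.77 and 8.43 CPM in controls and 7.03, 4.18 and 6.41 CPM in KI, with overlapping groups and a log2 fold change of -0.16 (SE 0.21). The caudal marker was thus about 5 times lower. The rostral marker overlapped between the groups, although its lowest KI value (4.18 CPM) lay below all controls. Without control replicate 3 the Tbx18, Pax9 and Nkx3-2 log2 fold changes at E8.5 were 0.06, 0.00 and 0.08.

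Of the factors of the epithelial somite, Tcf15 (also called paraxis, needed for somite epithelium) stood at 37.6, 25.5 and 36.2 CPM in E8.5 controls and 13.7, 14.0 and 12.4 CPM in KI, a log2 fold change of -1.30 (SE 0.16). Meox1 stood at 72.7, 61.3 and 85.6 CPM in controls and 32.9, 34.3 and 39.3 CPM in KI (-1.04, SE 0.19). Meox2, a homeobox paralog of Meox1, stood at 4.88, 5.06 and 7 CPM against 3.62, 3.09 and 3.43 CPM (-0.74, SE 0.23). All 3 genes were lower in KI without overlap, with smaller ratios than Pax1 and Uncx. Pax3 stood at 31.8, 29.6 and 34.1 CPM in controls and 25.0, 26.9 and 26.1 CPM in KI (-0.29, SE 0.11), a small but non-overlapping difference. Foxc2 stood at 85.0, 59.1 and 79.2 CPM against 56.7, 59.2 and 63.9 CPM (-0.31, SE 0.14), with 1 control below 2 of the KI embryos.

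**Figure D1:**
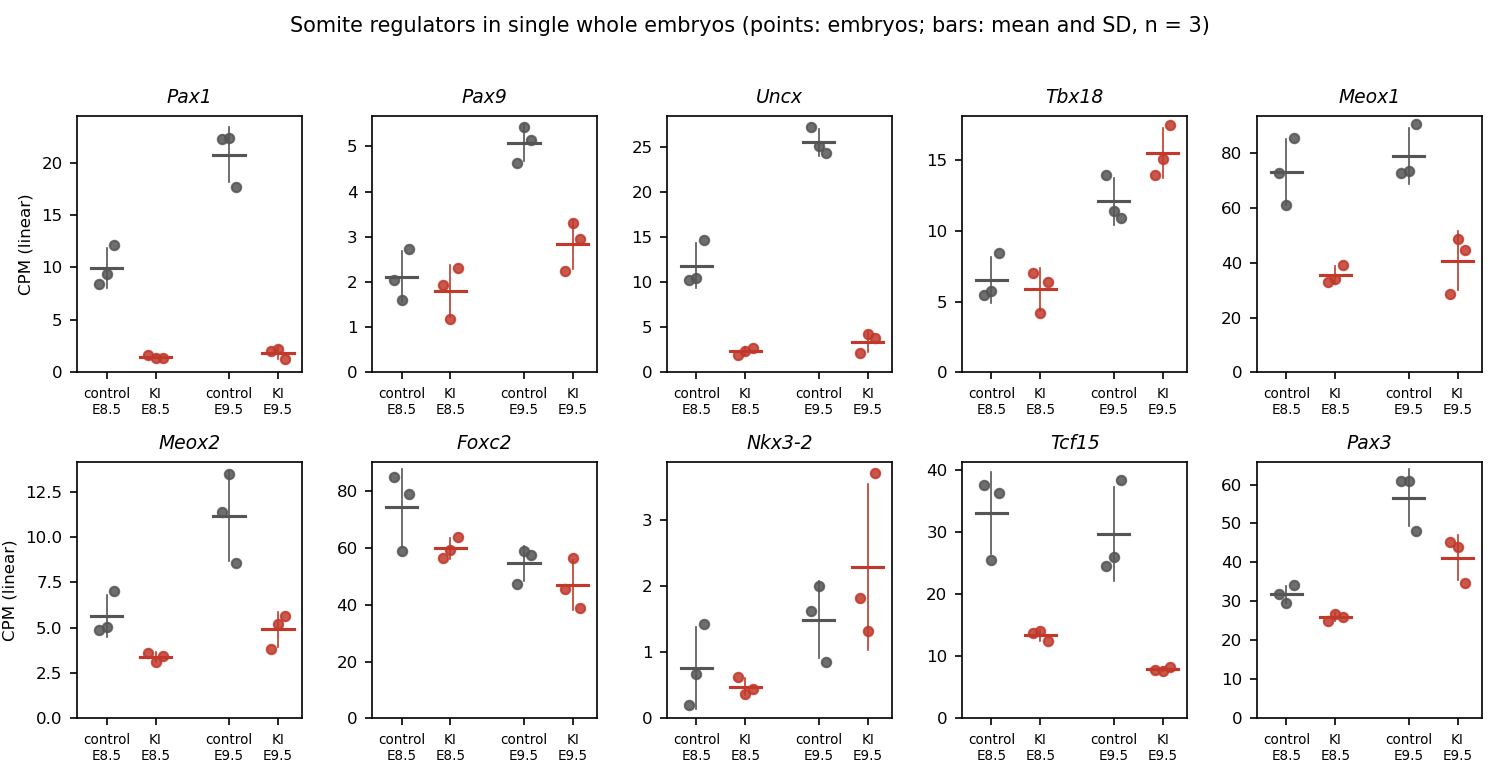
Level of each of the 10 genes in every embryo (CPM on a linear axis from 0; points are embryos, horizontal bars group means and vertical bars SD, n = 3; grey for control and red for KI). The KI points of Pax1, Uncx, Meox1, Meox2, Tcf15 and Pax3 lie below all control points at both stages. Those of Tbx18 overlap the controls at E8.5 and lie at or above the highest control at E9.5, a difference that did not pass the test.

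At E9.5 the comparison was tested, with p-values adjusted over all 15436 genes. Of the 10 genes 7 fell and none rose in KI embryos, where 14.9% of all genes tested were lower and 14.6% higher (29.5% called in all), and those 7 were lower without overlap between the groups, as were 21.4% of all genes. The median log2 fold change was -0.90 against 0.01 over all genes. The largest differences were again in Pax1 and Uncx. Tbx18, Foxc2 and Nkx3-2 did not pass the test. The labels used here give no somite number or size of the embryos. Tubb3, a neuronal tubulin, stood at 104 to 160 CPM in E9.5 controls and at 23.8 to 26.5 CPM in E9.5 KI embryos, near the 19.4 to 28.0 CPM of all E8.5 embryos; how far a difference in developmental progress has a part in the results was not tested.

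Pax1 stood at 22.2, 22.3 and 17.7 CPM in E9.5 controls and at 2.03, 2.27 and 1.24 CPM in KI embryos. The KI embryos held 28 to 53 Pax1 reads each, and the groups were far apart, with a log2 fold change of -3.48 (SE 0.22, edgeR adjusted p = 2.81e-09). Pax9 stood at 4.64, 5.42 and 5.15 CPM against 2.24, 3.30 and 2.96 CPM, again without overlap but with a smaller ratio (-0.84, SE 0.28, adjusted p = 0.0307). The Pax9 call was lost on leaving out any single E9.5 embryo except KI replicate 2, with adjusted p between 0.0546 and 0.107. Nkx3-2 stood at 1.63, 2.00 and 0.850 CPM in controls and 1.82, 1.33 and 3.71 CPM in KI, with the groups interleaved (0.60, SE 0.52, adjusted p = 0.414).

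Uncx stood at 27.2, 25.1 and 24.3 CPM in E9.5 controls and at 2.11, 4.25 and 3.84 CPM in KI (-2.91, SE 0.22, edgeR adjusted p = 1.91e-08). Tbx18, in contrast, stood at 14.0, 11.4 and 10.9 CPM in controls and 14.0, 15.1 and 17.5 CPM in KI. Every KI embryo was at or above the highest control for Tbx18, as for 22.6% of all genes, yet the difference did not pass the test (0.36, SE 0.20, adjusted p = 0.176). The estimates of the caudal and rostral markers stood on opposite sides of 0, but only that of Uncx passed the test.

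Tcf15 stood at 24.6, 25.9 and 38.3 CPM in E9.5 controls and at 7.79, 7.59 and 8.22 CPM in KI (-1.91, SE 0.17, edgeR adjusted p = 3.08e-07). The 3 KI values lay close together and well under all controls. Meox1 stood at 72.9, 73.6 and 90.7 CPM against 28.5, 48.9 and 44.8 CPM (-0.96, SE 0.19, adjusted p = 0.00383), and Meox2 at 11.4, 13.5 and 8.55 CPM against 3.81, 5.23 and 5.66 CPM (-1.19, SE 0.22, adjusted p = 0.000478). Both paralogs fell, with no overlap between the groups. Pax3 stood at 60.9, 60.8 and 48.2 CPM against 45.2, 43.9 and 34.6 CPM (-0.46, SE 0.11, adjusted p = 0.00373), the smallest of the called differences. Foxc2 overlapped, at 47.4, 58.9 and 57.5 CPM against 45.6, 56.5 and 38.9 CPM (-0.22, SE 0.14, adjusted p = 0.277).

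**Figure D2:**
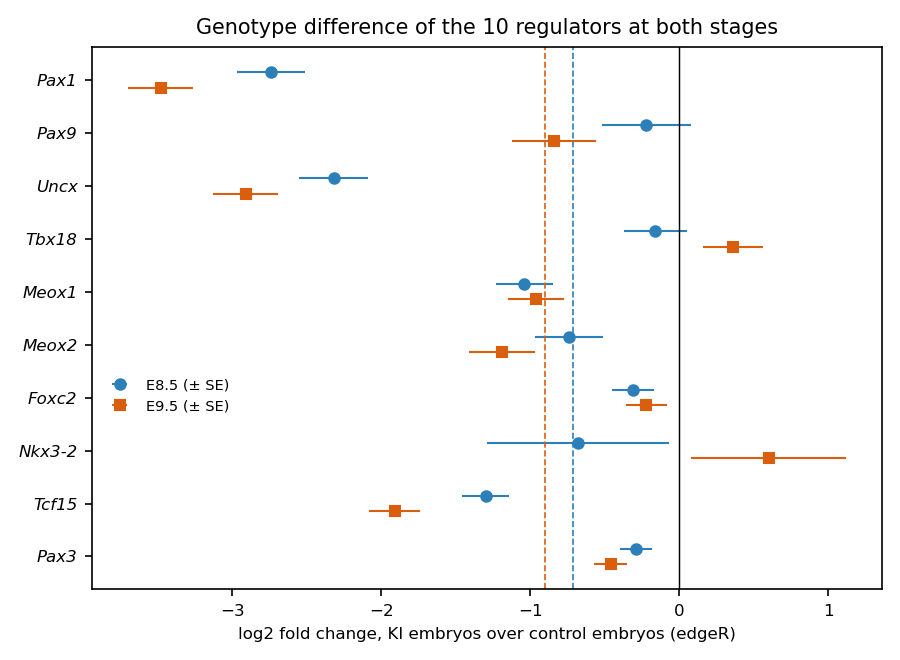
Log2 fold change of KI over control embryos for each gene (horizontal axis, edgeR estimate with SE; circles E8.5, squares E9.5; dashed lines are the medians of the 10 genes, -0.71 and -0.90). Pax1 and Uncx lie farthest left at both stages, and Tbx18 and Nkx3-2 lie right of 0 at E9.5.

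The numbers in the embryo titles allowed the ratio to be taken within a number. At E8.5, where each of 3 numbers holds 1 control and 1 KI embryo, the log2 ratio of CPM was -3.09 to -2.36 for Pax1, -2.41 to -2.15 for Uncx, -1.54 to -0.86 for Tcf15 and -1.14 to -0.84 for Meox1. At E9.5, where 1 number holds 2 embryos of each genotype and the other 1 of each, it was -3.84 and -3.37 for Pax1, -3.04 and -2.66 for Uncx, and 0.20 and 0.69 for Tbx18. The Nkx3-2 ratio ran from -1.68 to 1.64 between the numbers at E8.5. The 8 genes other than Nkx3-2 and Tbx18 were lower or level in KI within every number at both stages, with Foxc2 highest at 0.00 within 1 number of E8.5.

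From E8.5 to E9.5, levels in control embryos were higher for most of these genes. The comparison is a description, because the E8.5 embryos of both genotypes entered the ratios that helped to choose the genes. Pax9 was higher at E9.5 by 1.20 (SE 0.29) on the log2 scale, Uncx by 1.05 (SE 0.20), Pax1 by 0.99 (SE 0.20), Meox2 by 0.92 (SE 0.22), Nkx3-2 by 0.90 (SE 0.55), Tbx18 by 0.82 (SE 0.20) and Pax3 by 0.77 (SE 0.11). Meox1 (0.05, SE 0.19) and Tcf15 (-0.22, SE 0.16) differed little, and Foxc2 was lower (-0.51, SE 0.14). In that fit 7 of the 10 genes, 6 higher and 1 lower, lay past the threshold that 24.2% of all genes passed (12.2% higher and 12.1% lower), and nothing is read from that count.

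In KI embryos the genes that were lowest relative to controls differed little with stage: Pax1 by 0.24 (SE 0.25) and Uncx by 0.46 (SE 0.24). Tbx18 was higher at E9.5 by 1.34 (SE 0.20), Nkx3-2 by 2.18 (SE 0.58) and Pax3 by 0.60 (SE 0.11), while Tcf15 (-0.83, SE 0.17) and Foxc2 (-0.42, SE 0.14) were lower. Without E9.5 KI replicate 3, the embryo with the highest Nkx3-2, the Nkx3-2 value was 1.65, and without E9.5 KI replicate 1 the Uncx value was 0.69. For the same reason as in the controls this is a description: 5 of the 10 genes, 3 higher and 2 lower, lay past the threshold that 32.5% of all genes passed (15.9% higher and 16.6% lower), or 3 of the 10 without E9.5 KI replicate 3. The genotype log2 fold change at E9.5 minus that at E8.5, given without a test since it contains the E8.5 comparison, was -0.75 (SE 0.32) for Pax1, -0.59 (SE 0.31) for Uncx, -0.61 (SE 0.23) for Tcf15, 0.52 (SE 0.29) for Tbx18 and 1.28 (SE 0.80) for Nkx3-2.

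Likeness over the 12 embryos followed these groups. The 12 points fall into 4 groups of 3 with shared stage and genotype, so the correlations of log2 CPM are descriptions. Pax1 and Uncx were the most alike pair (Pearson r = 0.97), Meox1 was most like Uncx (0.94) and Meox2 likewise (0.90). Tbx18 and Nkx3-2 were most like each other (0.88), and Foxc2 correlated at best with Tcf15 (0.64). Among the 13800 other genes with a mean of at least 1 CPM, the 5 most like the mean of the 10 genes were Dmrt2 (0.98), Pbk, Wnt7a and Traf3 (0.96 each) and Rab3il1 (0.95). Dmrt2, a doublesex-related factor of the dermomyotome, stood at 7.20 ± 1.70 and 16.1 ± 0.697 CPM (SD, n = 3) in E8.5 and E9.5 controls and at 2.77 ± 0.939 and 5.25 ± 0.713 CPM in KI. Wnt7a, a Wnt ligand, stood at 6.83 ± 1.62 and 17 ± 3.42 CPM in controls and 3.92 ± 0.258 and 6.20 ± 1.00 CPM in KI.

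Other genes of somite formation were read from 4 lists, each beside the 14.9% of all genes that were lower and the 14.6% that were higher in KI at E9.5. Of 12 presomitic, segmentation and polarity genes, 7 fell and 2 rose in KI at E9.5, with a median log2 fold change of -1.42; at E8.5 the median was -0.20. Msgn1, a basic helix-loop-helix factor of presomitic mesoderm, fell by 2.08 (SE 0.49, edgeR adjusted p = 0.00356), Dll3, a Notch ligand of the segmentation clock, by 1.86 (SE 0.17, adjusted p = 1.53e-06) and Ripply1, a repressor at the segment border, by 1.61 (SE 0.57, adjusted p = 0.04). Mesp2, which sets segment borders and rostral identity, had 6 to 100 reads in the controls and 2 reads in each KI embryo (adjusted p = 0.00239). Both genes that rose were Eph pathway genes of the segment border, Epha4 and Efnb2, which were singled out after their values were seen (0.36 with adjusted p = 0.00507, and 0.57 with adjusted p = 1.87e-05, edgeR). They averaged 64.4 and 105 CPM over the 12 embryos, and which tissues held their reads was not tested. At E8.5 Mesp1 had the lowest value of that list (-0.89, SE 1.18), at under 1 CPM.

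Of 7 sclerotome and early cartilage genes, 1 fell and 1 rose at E9.5, and the median log2 fold change was 0.13, against 0.05 at E8.5. Both shares are near those of all genes (14.9% and 14.6%). Foxc1, the paralog of Foxc2, fell by 0.48 (SE 0.16, edgeR adjusted p = 0.0415) and Sox6, a cartilage factor, rose by 0.51 (SE 0.14, adjusted p = 0.0103). The other 5 did not pass.

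Of 13 dermomyotome and myotome genes tested among 14 listed, 7 fell and 1 rose at E9.5, where 14.9% and 14.6% of all genes did, with a median of -0.53. The muscle regulators had few reads in E9.5 KI embryos. Myf5, the first myogenic factor of the myotome, stood at 2.71 CPM in controls and 0.288 CPM in KI (-3.22, SE 0.58, edgeR adjusted p = 0.000353). Myog had 61 to 96 reads per control and 0 to 4 per KI embryo (-5.64, SE 0.85, adjusted p = 6.92e-05), and Myf6 had 12 to 25 reads per control and 0 in all KI embryos, at least 5.62-fold lower against a floor of 3 reads per library (adjusted p = 0.00416). Dmrt2 fell by 1.62 (SE 0.22, adjusted p = 2.16e-05) and was lower at E8.5 too (-1.37, SE 0.23). The gene that rose was En1, an engrailed homeobox gene, singled out after its values were seen (0.43, SE 0.13, adjusted p = 0.02), which was at -1.32 (SE 0.14) at E8.5. At E8.5 the median of the list was -0.03.

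Of 9 signals to the somite and their readouts, 2 rose and 1 fell at E9.5, shares near those of all genes (14.6% and 14.9%), and the median was 0.44. Wnt3a, a dorsal neural tube and tail bud Wnt, fell by 0.96 (SE 0.20, edgeR adjusted p = 0.0013) and was at -1.17 (SE 0.20) at E8.5. Bmp4 rose by 1.03 (SE 0.12, adjusted p = 1.27e-05; 0.96 at E8.5) and its antagonist Nog by 0.70 (SE 0.15, adjusted p = 0.00138). Shh and the Hedgehog readouts Gli1, Ptch1 and Hhip did not pass at E9.5, with log2 fold changes of -0.47, 0.25, 0.44 and 0.49; they were singled out after their values were seen.

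**Figure D3:**
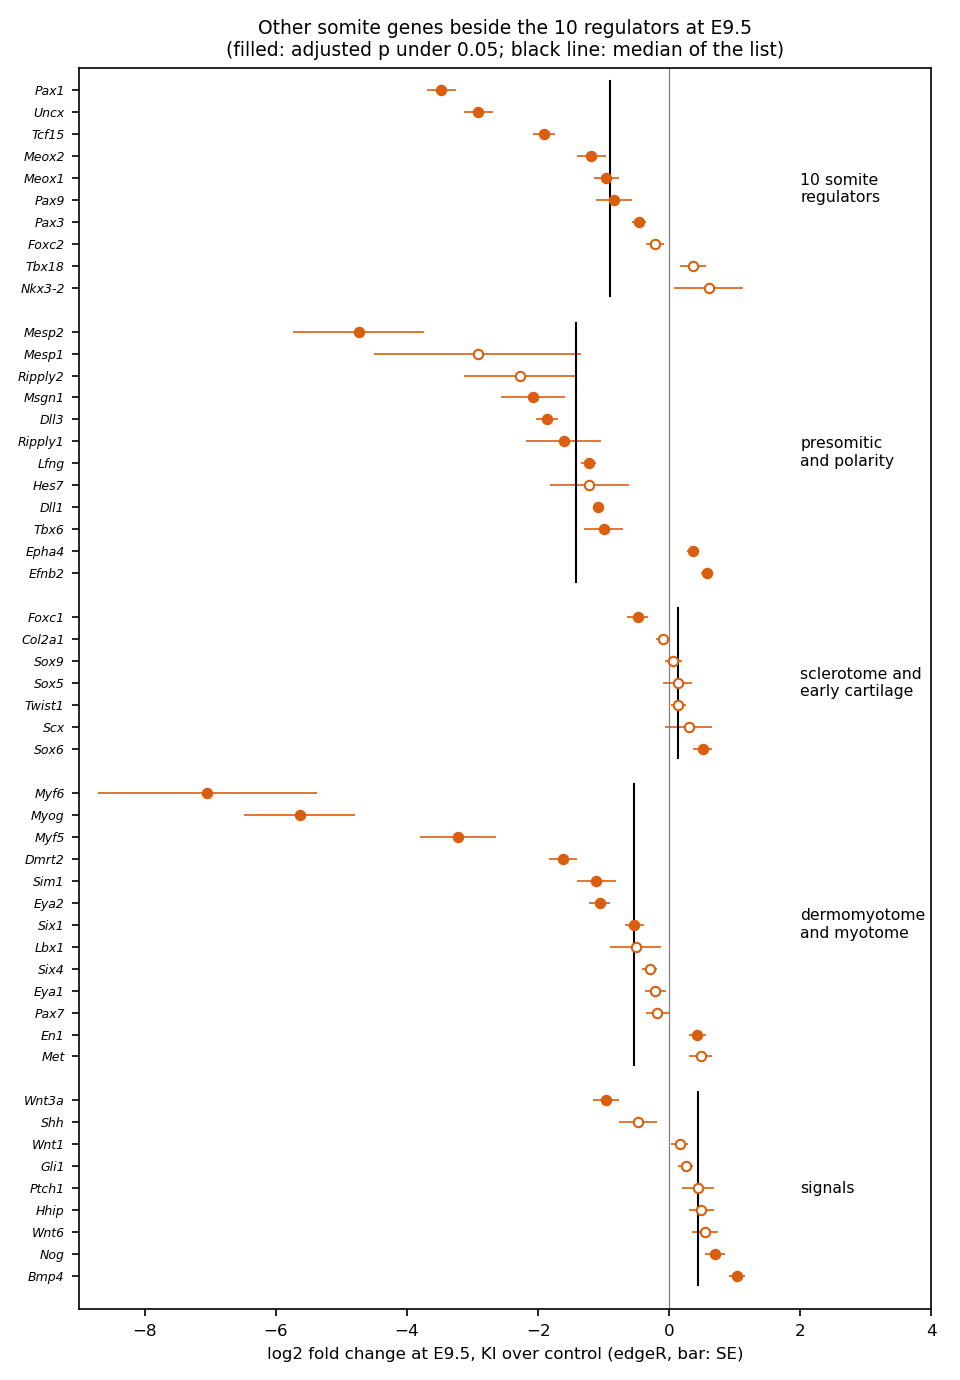
Log2 fold change of KI over control embryos at E9.5 for the 10 genes and the 4 lists of other somite genes (edgeR estimate, bars are SE; filled points have an adjusted p under 0.05; black lines are list medians). Most presomitic genes and the muscle regulators lie left of 0, as Pax1 and Uncx do, while most cartilage and signal genes lie near or right of it. The positions of Myf6 and other genes with almost no KI reads depend on the estimate for a group at 0.

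Markers of other tissues in a whole embryo were counted over the same embryos, where 14.6% of all genes rose and 14.9% fell. At E9.5 all 5 heart muscle genes rose (summed level 190 to 231 CPM in controls and 407 to 769 in KI), of which Myh6 and Tnnt2 are the most abundant, and 4 of 7 neural crest genes rose, with none lower (183 to 210 against 256 to 317 CPM). Proepicardial genes, which share a site with Tbx18, rose in 3 of 5 tested genes (45.2 to 67.2 against 93.1 to 120 CPM). Limb bud genes rose in 3 and fell in 2 of 6 (153 to 164 against 178 to 204 CPM). Of the most abundant of them, Hand2 rose from a mean of 50.6 to 98.5 CPM, while Prrx1 fell from 60.2 to 44.6 CPM. The higher sum therefore does not hold for the list as a whole. Pharyngeal endoderm genes, which share a site with Pax9, rose in 2 and fell in 1 of 6 tested (70.0 to 85.1 against 109 to 119 CPM), and Gcm2 had almost no reads. Epcam, the most abundant of them, rose from a mean of 35.6 to 64.2 CPM. The gene that fell was Nkx2-1, singled out after its values were seen, from 10.9 to 1.45 CPM (-2.90, SE 0.32). Dorsal neural tube genes, which share a site with Pax3, rose in 1 and fell in 2 of 7 (187 to 199 against 191 to 215 CPM), with a median log2 fold change of -0.41. Msx1 makes up most of that sum. Notochord genes rose in 1 and fell in 2 of 7, with overlapping sums of 83.4 to 96.2 against 58.1 to 89.8 CPM, and endothelial genes rose in 2 of 5. At E8.5, where edgeR called 5.46% of all genes, 3 of 5 endothelial, 2 of 6 limb bud and 1 of 5 proepicardial genes were higher. None in these lists was called lower. Pharyngeal endoderm and dorsal neural tube genes had 1 higher and 1 lower each, and no heart muscle, neural crest or notochord gene was called. The summed level of the 10 somite genes was 208 to 281 CPM in E8.5 controls and 145 to 158 in KI, and 287 to 302 against 153 to 188 at E9.5. The part of these other tissues in the somite gene differences was not tested.

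In the cultures these genes showed other patterns. Pax1, Pax9, Uncx, Meox1, Meox2 and Nkx3-2 had 0 reads in at least 1 of the 25 culture libraries, which allows up to 3 reads, or 0.05 to 0.16 CPM depending on the library. Pax1 and Meox2 had medians of 0.212 and 0.101 CPM over those libraries, against embryo minima of 1.24 and 3.09 CPM. Uncx stood above 1 CPM only in neural cultures, at 22.2 to 39.2 CPM. Pax3 reached its highest level of any group in KI neural progenitors and Tbx18 in flox EBs of day 10.

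**Figure D4:**
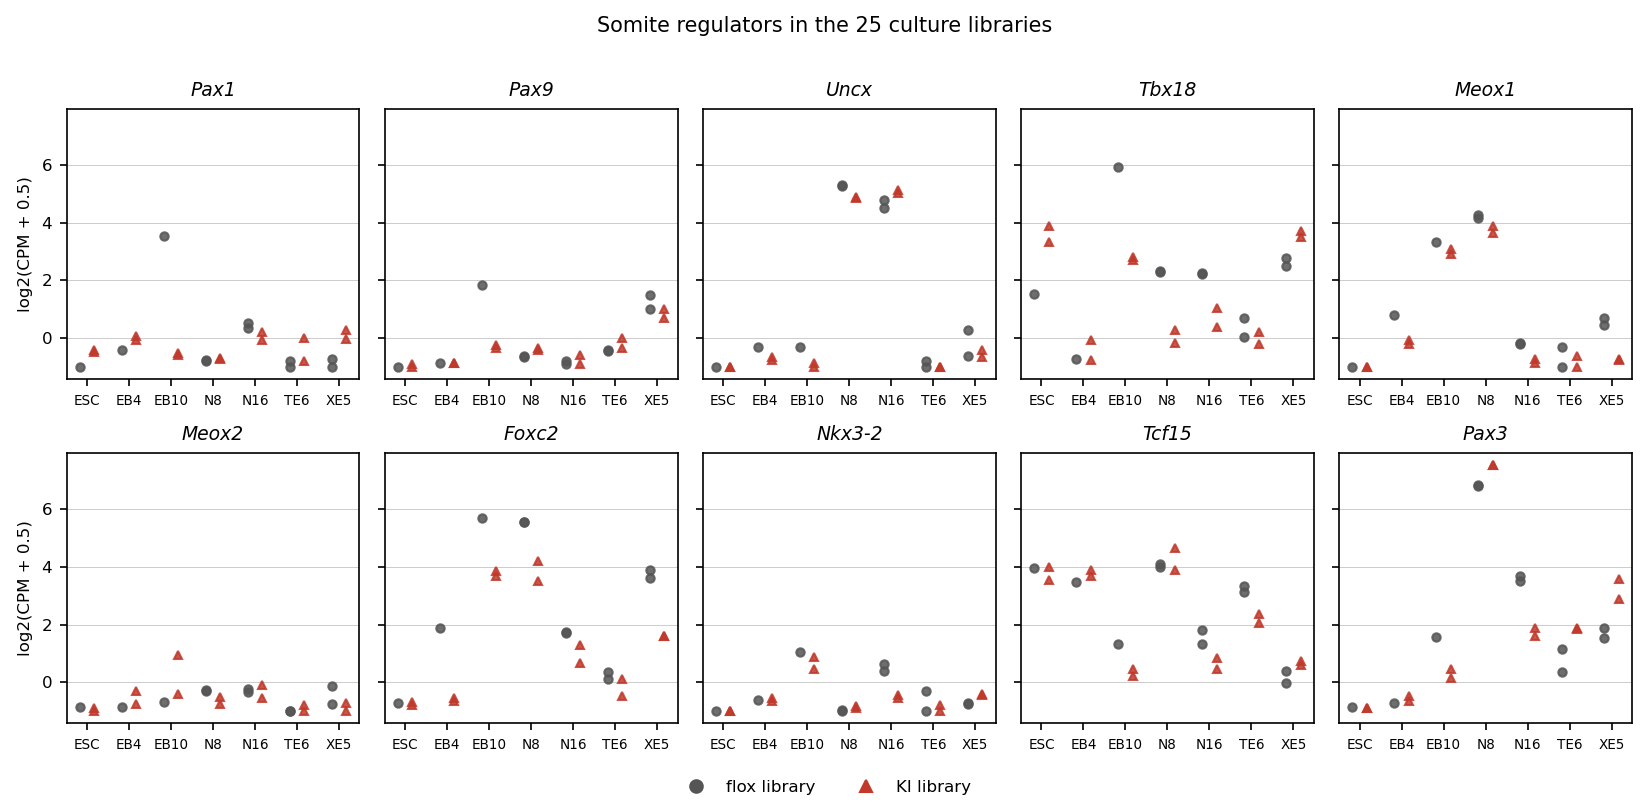
Level of the 10 genes in each of the 25 culture libraries as log2(CPM + 0.5) (grey circles flox, red triangles KI; ESC, EB days 4 and 10, neural days 8 and 16 (N8, N16), trophectoderm day 6 (TE6) and extraembryonic endoderm day 5 (XE5)). The single flox EB library of day 10 stands above both KI clones for every gene but Meox2. For Pax1, Pax9, Tbx18, Foxc2 and Pax3 it does so by at least 2-fold on this scale. Uncx is high in all neural cultures of both genotypes, and Pax3 in both genotypes at neural day 8.

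Among the cultures, Pax1 stood above 1 CPM only in flox EBs of day 10. Flox has 1 library per day there, so single days were compared without a test, and a gene was counted when both KI clones lay at least 2-fold from flox on log2(CPM + 0.5). At day 10, 5 of the 8 genes with at least 1 CPM, in flox or on average over the 3 libraries, were lower in both clones, as were 3.97% of all genes: Pax1, Pax9, Tbx18, Foxc2 and Pax3. Pax1, Pax9 and Pax3 passed the minimum of 1 CPM only through the flox library, so that their direction was partly fixed by it. Pax1 stood at 11.2 CPM in flox (288 reads) and 0.205 and 0.167 CPM in the clones (4 reads each). Tbx18 stood at 61.0 CPM against 6.09 and 6.54 CPM, Foxc2 at 51.3 against 13.9 and 12.2 CPM, and Pax9 at 3.06 against 0.358 and 0.292 CPM. Tbx18 and Foxc2, which were not called in KI embryos of E9.5, were counted as lower here, while Meox1 (9.62 against 7.06 and 7.96 CPM) and Tcf15 (1.98 against 0.869 and 0.666 CPM) were not counted. In the same day 10 libraries the endoderm gene Sox17 stood at 19.5 CPM in flox and 92.7 to 129 CPM in KI, and Cdx2 at 2.06 against 7.29 to 14.4 CPM; the part of other cell types in these differences was not tested. A library effect of the single flox culture cannot be told apart from genotype at 1 day. In ESCs Tbx18 went the other way, at 2.38 CPM in flox and 14.3 and 9.67 CPM in the clones, as did 4.81% of genes. At day 4 Foxc2 stood at 3.17 CPM in flox and 0.183 and 0.136 CPM in the clones (4.48% of genes were lower), and passed the minimum only through flox.

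Averaged over the 3 days, edgeR called none of 9 genes tested and 0.730% of all genes; 2 of the 9 genes and 2720 of the 16567 genes had an unadjusted p under 0.05. Foxc2 came nearest (-2.50, SE 0.46, adjusted p = 0.0646), and DESeq2 called it (adjusted p = 0.000462), its only call among these genes. From day 4 to day 10 the KI clones gained Foxc2 (6.23, SE 0.32, edgeR adjusted p = 3.74e-06), Tbx18 (4.42, SE 0.49, adjusted p = 0.000164) and Meox1 (4.10, SE 0.33, adjusted p = 5.62e-05), with Nkx3-2 and Pax3, while Tcf15 fell by 4.20 (SE 0.27, adjusted p = 9.75e-06) and Pax1 by 1.49 (SE 0.51, adjusted p = 0.0291). These 7 calls among 7 genes stand beside 73.3% of all genes, and 4 of them remained without the day 4 library of clone 27. Both the Pax1 and the Pax3 call rested on at most 21 reads per library and were lost with DESeq2 (adjusted p = 0.235 and 0.112). From ESCs to day 4, 3 of 7 genes were called (50.3% of all genes), and Tbx18 fell by 5.52 (SE 0.49, edgeR adjusted p = 0.000122). Meox1 was at 0 reads in both KI ESC libraries and at 8 and 10 reads at day 4, at least 3.23-fold higher, and Nkx3-2 at 0 and then 3 and 4 reads, at the floor itself. The Nkx3-2 call was lost without any 1 of the 4 libraries (adjusted p 0.0764 to 0.104, edgeR), which left 2 calls.

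Neural cultures expressed Pax3 and Uncx, both also known from the developing neural tube. In progenitors at day 8, 1 gene rose and 4 fell in KI, where 6.30% of all genes rose and 13.2% fell (19.5% called in all). Pax3 stood at 114.0 and 112.0 CPM in flox and 182.8 and 183.1 CPM in KI (0.73, SE 0.10, edgeR adjusted p = 0.000238). Tbx18 stood at 4.38 and 4.49 CPM against 0.712 and 0.389 CPM (-2.99, SE 0.30, adjusted p = 1.85e-05), and Foxc2 at 45.9 and 46.1 CPM against 17.8 and 10.8 CPM (-1.66, SE 0.22, adjusted p = 0.00034). Tbx18 and Foxc2 were thus lower where Pax3 was higher. In the same libraries Gata6 stood at 34.4 to 36.8 CPM in flox and 9.68 to 12.7 CPM in KI and Sox17 at 13.5 to 14.7 against 2.85 to 2.97 CPM, both genes of endoderm and other non-neural cells, and at day 16 Gata6 stood at 44.5 to 48.8 against 4.63 to 9.38 CPM. The part of non-neural cells in these differences was not tested. Uncx (-0.38, adjusted p = 0.0243) and Meox1 (-0.42, adjusted p = 0.0465) fell slightly. The Uncx call was lost without any 1 of the 4 libraries (adjusted p 0.11 to 0.189), 3 of the 5 calls remained without flox replicate 1, flox replicate 2 or KI clone 48, and Meox1 was not called with RLE factors (adjusted p = 0.0672) or DESeq2 (0.13). The 2 flox libraries of day 8 differed less than any other replicate pair (chi-square per degree of freedom 1.50, against 2.76 or more), so that replication there may be overstated.

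In neurons at day 16 Uncx and Pax3 moved the other way than at day 8 (difference of the log2 fold changes 1.03 and -2.54, edgeR adjusted p = 0.000315 and 1.07e-06, where 33.2% of all genes differed between the days). At day 16, 1 gene rose and 5 fell, where 27.1% of all genes rose and 19.7% fell (46.9% called in all). Uncx stood at 22.2 and 26.9 CPM in flox and 34.7 and 32.1 CPM in KI (0.65, SE 0.11, edgeR adjusted p = 0.000426). Pax3 stood at 12.3 and 10.8 CPM in flox and 2.54 and 3.17 CPM in KI (-1.81, SE 0.12, adjusted p = 5.46e-07). Tbx18 (4.31 and 4.15 against 1.54 and 0.818 CPM, -1.65, adjusted p = 0.000303), Meox1 and Nkx3-2 fell as well, the latter from 0.817 and 1.05 CPM to 0.185 and 0.234 CPM (-1.92, SE 0.35, adjusted p = 0.000825). Tcf15 was called (-0.97, adjusted p = 0.0458) but not without any 1 of the 4 libraries or without the low-count filter (adjusted p 0.0512 to 0.291). In the same libraries the neuronal gene Tubb3 stood higher in KI, as given above, and the part of neuronal content in these differences was not tested.

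In trophectoderm cultures 2 of 7 genes tested were called, where 50.9% of all genes were. Tcf15 stood at 8.27 and 9.64 CPM in flox and 3.63 and 4.68 CPM in KI (-1.08, SE 0.26, edgeR adjusted p = 0.00315), and Pax3 at 1.73 and 0.768 CPM against 3.20 and 3.12 CPM (1.38, SE 0.38, adjusted p = 0.0084). The Pax3 call was lost without flox replicate 2 (0.87, adjusted p = 0.116). Beside the difference in Cdx2 given above, the mesoderm gene T stood at 4.69 to 8.29 CPM in flox and 34.4 to 77.8 CPM in KI, and the part of such cells was not tested. In extraembryonic endoderm cultures 2 of 7 rose and 2 fell, where 35.5% of all genes were called. Foxc2 stood at 11.7 and 14.4 CPM in flox and 2.53 CPM in both KI clones (-2.40, SE 0.30, adjusted p = 2.89e-05). Pax3 stood at 2.42 and 3.17 CPM against 6.80 and 11.4 CPM (1.67, SE 0.35, adjusted p = 0.00187), and Tbx18 at 6.30 and 5.11 CPM against 10.9 and 12.6 CPM (1.01, SE 0.28, adjusted p = 0.0121). Meox1 stood at 0.872 and 1.12 CPM against 2 reads in each KI library (adjusted p = 0.0342), a call that was lost without any 1 library and with DESeq2 (adjusted p = 0.0614). Without flox replicate 1 or 2 or without KI clone 48, 2 of the 4 calls remained, since Tbx18 was then lost too (adjusted p 0.0504 to 0.125). In the same libraries Tubb3 stood at 122 CPM in flox and 43.5 to 51.1 CPM in KI, Pax6 at 4.7 to 5.18 against 7.83 to 11 CPM, and Sox17 was lower in KI as given above. The part of other cell types was not tested here either.

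The KI effect differed between trophectoderm and extraembryonic endoderm for Tbx18, Foxc2 and Tcf15 among the 7 genes tested (edgeR adjusted p = 0.0227, 0.0345 and 0.00892), as for 35.3% of all genes.

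Pax1, the lowest of the 10 genes by ratio in KI embryos, was called in none of the tested genotype comparisons of cultures. Over the EB course its log2 fold change was -2.24 (SE 1.51, edgeR adjusted p = 0.51), with 288 reads in flox EBs of day 10 and 0 to 12 in the other libraries of the course. Its reads elsewhere were 4 to 5 per library in neural progenitors, 25 to 42 in neurons and 0 to 14 in trophectoderm, and in extraembryonic endoderm 0 and 2 in flox against 10 and 14 in KI (3.40, SE 1.34, edgeR adjusted p = 0.0631). Uncx was called only in the neural cultures, higher at day 16 and, with all 4 libraries only, lower at day 8, and was not tested in trophectoderm or extraembryonic endoderm, where it had 0 to 14 reads.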

How the data were processed

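RNA was measured in 37 libraries, in 18 groups taken from the sample titles, and the other 63 of 100 samples were not analysed here. Poly(A) RNA was selected and libraries made with NEBNext kits, per the labels' protocols. Each deposited table gives a read count and an RPKM value for 29082 RefSeq transcripts, per the file headers. The submitters' processing notes name mm9, bcl2fastq, Bowtie2, STAR and SICER 1.1 without roles. Which counter and annotation were used, and whether strand was, is not given in the sources used here, so overlapping antisense reads cannot be told apart. The deposited RPKM values, which equal the count over 1 length and 1 denominator per library, were used only to compare levels between genes.

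Of the transcripts, 28436 matched a symbol and 646 did not. The transcript with most reads stood for each gene, giving 23109 entries; of the 10 genes only Pax3 has more than 1 transcript. CPM (counts-per-million) is the deposited count relative to the gene-level reads, which numbered 18.9 to 59.9 M per library, so that 3 reads equal 0.05 to 0.16 CPM. Such limits cover counting error only. Genes were tested with edgeR 4.0.16 in R 4.3.3 (filterByExpr with a minimum of 10 reads, TMM, robust quasi-likelihood, Benjamini-Hochberg over all genes tested), and called at an adjusted p under 0.05. The SE is the absolute log2 fold change over the square root of F. The comparisons of stages, planned as tests, are given as descriptions because the E8.5 embryos helped to choose the genes. The 12 embryo, 8 neural and 8 trophectoderm and extraembryonic endoderm libraries each formed 1 fit, and the EB course a fit with day as a factor. The procedure was tested on simulated data. Where nothing says that replicates came from separate cultures or litters, p-values measure only the spread between these samples.

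The 10 genes and all lists were chosen with earlier results of these data known. In the list of sclerotome and early cartilage genes, 1 gene is not reported here. Of each somite list, up to 4 called genes with the largest change at E9.5 and up to 2 with the largest at E8.5 were named, and of each marker list up to 2 of the most abundant genes. Genes said to be singled out were named outside these rules. At E8.5, control and KI embryos that share a title number deviated together from their group means (r = 0.29, 0.33 and 0.13 across genes), so the numbers pair them, although the labels do not say what they mark. At E9.5 this did not hold for every pair (-0.01 to 0.17). KI clone numbers pair libraries of 1 line across days. Alternatives were DESeq2 1.42.0, RLE factors, no low-count filter, sums over transcripts, fits of only the libraries compared, leaving out each replicate, and the blocks.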

Additional observations from a re-analysis of the deposited data

Results flagged for a closer look

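For 6 of the 10 genes the effect of KI differed between neural day 16 and day 8 by a test of the difference itself (edgeR, adjusted over all genes, of which 33.2% were called). As the log2 fold change at day 16 minus that at day 8, the difference was 1.03 for Uncx (adjusted p = 0.000315) and 1.34 for Tbx18 (adjusted p = 0.0243), and -2.54 for Pax3 (adjusted p = 1.07e-06), -1.62 for Meox1 (adjusted p = 0.0136), -1.28 for Tcf15 (adjusted p = 0.0468) and -4.05 for Nkx3-2 (adjusted p = 0.022). Uncx and Pax3 changed direction between the days, while Tbx18 was lower in KI at both. The Nkx3-2 value rests on few reads at day 8. The same flox and clone numbers recur at both days, and no neural fit took them as a block. The values of Tcf15, Tbx18 and Nkx3-2, nearest the threshold, should be read with that limit.

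For 3 genes the effect differed between trophectoderm and extraembryonic endoderm cultures (35.3% of all genes called). As trophectoderm minus extraembryonic endoderm, the difference was -1.68 for Tbx18 (edgeR adjusted p = 0.0227), 1.68 for Foxc2 (adjusted p = 0.0345) and -1.80 for Tcf15 (adjusted p = 0.00892). Groups hold at most 3 libraries, too few to look for single libraries far from the rest.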

How the results depend on the processing

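Of 938 recomputed log2 fold changes of the 10 genes, 853 kept their direction and their side of the threshold or, untested, their size, 54 lost a call, 7 gained one, 14 changed sign and 10 moved otherwise; the causes were not tested. At E9.5 the 7 calls among the 10 genes were 6 to 7 on leaving out each embryo. The median over the 10 genes at E8.5 (-0.71) ran from -0.95 to -0.41 on leaving out each embryo, and the count of all genes called there (843) from 363 to 755. On leaving out each library, calls among the 10 genes numbered 3 to 5 for KI embryos by stage, 4 to 7 for KI EBs from day 4 to day 10, 3 to 4 at neural day 8, 1 to 3 in trophectoderm and 2 to 3 in extraembryonic endoderm. Counts of all genes then ran from 1896 to 2362 at neural day 8 (3202 with all libraries), from 4982 to 5398 for KI day 4 against day 0 (7882), from 3641 to 4967 in extraembryonic endoderm (5520) and from 0 to 1 over the EB course (121). DESeq2 called 1 of the 10 genes and 778 genes in all over the EB course, 120 of them shared with edgeR. With the replicate block on the title number the E8.5 median was -0.62 and 1304 genes were called, 827 of them among the 843 called without it; at E9.5 the block left 7 of the 10 genes and 5284 genes called. With the KI clone as the block, 3 and 7 of the genes were called between EB days, as without it, and no block changed a call among the 10 genes.

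Log2 fold changes that changed sign on leaving out 1 library ran, at E8.5, from -0.32 to 0.06 for Tbx18, from -0.42 to 0.00 for Pax9 and from -1.13 to 0.08 for Nkx3-2. By stage, Meox1 ran from -0.08 to 0.17 in controls and from -0.04 to 0.31 in KI. In cultures, Tbx18 ran from -0.67 to 0.13 over the EB course, Tcf15 from -0.33 to 0.17 in KI from day 0 to day 4 and from -0.14 to 0.65 at neural day 8, Pax9 from -0.42 to 1.79 and Meox2 from -0.56 to 0.61 at neural day 16, and Meox1 from -4.85 to 3.81 in trophectoderm. None of these was a called value. At the depth of these libraries, 6 of the 10 genes had 0 reads in at least 1 culture library, and Nkx3-2 had 4 to 30 reads per embryo at E8.5.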
